A study of Homo sapiens with 8 samples.

Results

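The resistance effect described here is the difference in RNA level that PARP inhibitor-resistant ovarian cancer cells of both BRCA1 backgrounds have in common. It was estimated from all 8 of the 8 RNA-seq libraries of the series, as 4 resistant against 4 parental libraries with BRCA1 state as a covariate, and the genes described are those that moved the same way in both backgrounds. Of 16221 genes tested, 3751 did so: 1639 rose and 2112 fell. The cells are UWB1.289, a human ovarian cancer line without functional BRCA1, and its derivative UWB1.289+BRCA1, in which BRCA1 was put back. Each was compared with its own resistant derivative, named Olres in the labels. There are 4 groups of 2 libraries. The BRCA1-deficient background comprises UWB1.289 (passage 29) and Olres-UWB1.289 (passage 56), and the BRCA1-proficient one UWB1.289+BRCA1 (passage 10) and Olres-UWB1.289+BRCA1 (passage 45). The growth medium held no drug. All 4 groups go back to the UWB1.289 line, and whether each resistant derivative is a clone or a pool is not given in the sources used here. Resistant cells had the higher passage number in both backgrounds, so resistance and time in culture cannot be told apart.

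PARP1 and PARP2 bind DNA strand breaks and build chains of ADP-ribose that recruit repair factors. PARP inhibitors trap these enzymes on DNA, and cells need BRCA1 and the rest of the homologous recombination machinery to repair the lesions that follow. Known routes to resistance include restored recombination, loss of 53BP1 or shieldin, protection of stalled replication forks, lower PARP1 and drug efflux by ABC transporters, which is why the genes of these routes are given below next to the larger groups that moved.

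Library totals ranged from 24094821 to 34394107 counts. The first principal component of log2 CPM, the count relative to the TMM-scaled library total, held 58.1% of the variance and separated the BRCA1 states, and the second held 25% and separated all 4 resistant from all 4 parental libraries. Summed CPM of 10 ovarian and Müllerian epithelial markers was 3516 to 8159 per library, with 8 or 9 of the 10 at 1 CPM or more, and EMX2 was near or at 0. Of 8 leukocyte markers 3 or 4 were at 0 in each library and their sum was 17.7 to 30.1 CPM. The sum of 7 fibroblast markers was 4.52 to 59.2 CPM and that of 5 endothelial markers 3.89 to 50.3 CPM, with the highest endothelial values in deficient libraries of both kinds. The fibroblast sum was lower in all 4 resistant libraries (4.52 to 31.4 CPM) than in all 4 parental ones (44.8 to 59.2 CPM). It rests on few genes, with 1 or 2 of the 7 at 1 CPM or more in each library. The 3 fibroblast markers tested had additive log2 fold changes from -2.93 to 2.83 with a median of 1.30, so the sum does not stand for the list. Its part in the results was not tested. In these bulk samples fewer cells of a kind and less RNA per cell cannot be told apart.

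In the additive model, edgeR's quasi-likelihood test at an adjusted p under 0.05 called 2615 genes higher (16.1% of the genes tested) and 2780 lower (17.1%) in resistant cells. At least 2-fold were 1113 (6.86%) and 721 (4.44%) of them. Fewer passed this and the test within each background as well, which is what is meant below by moving the same way. By that rule 1639 genes rose, 10.1% of those tested, and 2112 fell, or 13%. A change of at least 2-fold in both backgrounds was seen for 448 of the risers (2.76%) and 336 of the genes that fell (2.07%). The median log2 fold change of the risers was 0.83 in deficient and 0.84 in proficient cells, and that of the genes that fell was -0.59 and -0.73. Over all genes tested it was 0.03 and -0.00.

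The 2 background comparisons share no library. In deficient cells 4686 genes rose (28.9%) and 4373 fell (27%), and in proficient cells 4205 rose (25.9%) and 4505 fell (27.8%). The same-way risers were 35.0% of all risers in deficient and 39.0% of those in proficient cells, and the same-way fallers were 48.3% and 46.9%. Of 5293 genes called in both backgrounds, 3784 (71.5%) had the same sign and 1509 had opposite signs. All 4 resistant libraries lay above all 4 parental ones for 839 of the same-way risers and below them for 1213 of the genes that fell, where the same held for 7.76% and 9.98% of all genes tested. The other same-way genes did not separate across all 4 resistant and all 4 parental libraries. How many of them separated within each background was not counted, and the reason for the overlap was not tested.

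**Figure D1:**
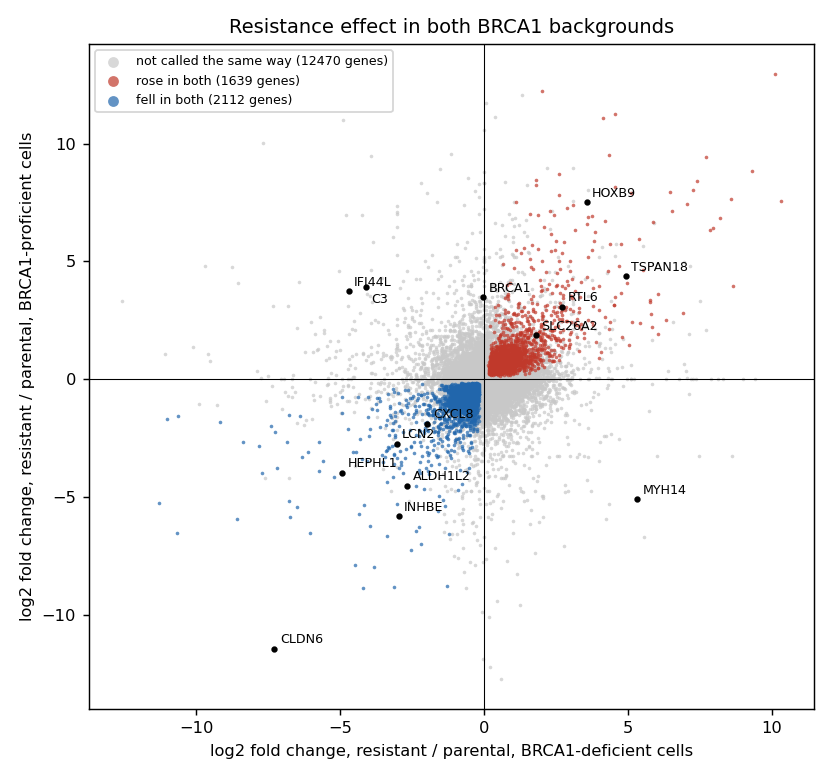
Each point is a gene tested, placed by its log2 fold change of resistant over parental cells in BRCA1-deficient (x axis) and BRCA1-proficient cells (y axis), with the 1639 genes that rose in both in red, the 2112 that fell in both in blue and named genes in black. SLC26A2 and CXCL8 lie near the diagonal, HOXB9 and INHBE moved further in proficient cells, and MYH14 and C3 lie in the quadrants of opposite sign. The position of points far from 0 on either axis depends on the prior count where a group has few or no counts.

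The genes that rose furthest in both backgrounds included a tetraspanin, a homeobox factor and a zinc finger gene. TSPAN18, the tetraspanin, on chromosome 11, stood at 0.230 and 0.115 CPM in parental and 5.19 and 5.26 CPM in resistant deficient libraries, and at 0.403 and 0.346 against 8.40 and 7.33 CPM in proficient ones. The groups did not overlap, and the additive log2 fold change was 4.62 ± 0.26 (SE), edgeR adjusted p = 0.000133. HOXB9, a homeobox transcription factor on chromosome 17, went from 2.11 and 2.47 to 28.2 and 26.3 CPM in deficient and from 0.0806 and 0.0691 to 15.1 and 14 CPM in proficient libraries. All 4 resistant libraries of HOXB9 were higher than any parental one (4.75 ± 0.65 (SE), edgeR adjusted p = 0.0019), although the parental level differed between the backgrounds.

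RTL6, a gene derived from a retrotransposon, had 7.01 and 5.42 CPM in parental and 39.4 and 41.6 CPM in resistant deficient libraries, and 2.10 and 1.76 against 16.4 and 16.1 CPM in the proficient ones. Its log2 change was 2.71 ± 0.15 (SE) in deficient and 3.08 ± 0.17 (SE) in proficient cells, and the difference between them was not called (adjusted p = 0.205). SEC31B, a paralog of the COPII coat protein SEC31A, rose with a log2 change of 2.82 ± 0.22 (SE) and 2.93 ± 0.20 (SE). The other genes of this kind were PNMA2 (3.85), WSCD1 (3.70), CFAP44, a protein of cilia and flagella (3.33), ZNF727 (4.05) and the linker histone gene H1-2 (3.29), each with all 4 resistant libraries above all 4 parental ones. The values in parentheses are additive log2 fold changes, with edgeR adjusted p from 0.000287 to 0.00234.

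The genes that rose with the smallest p were not always those that rose furthest. SLC26A2, a sulfate transporter needed for proteoglycan sulfation, stood at 372 and 368 CPM in parental and 1219 and 1363 CPM in resistant deficient libraries. In proficient cells it stood at 368 and 352 and 1256 and 1356 CPM, so that both backgrounds started and ended at like levels. Its additive log2 fold change was 1.83 ± 0.07 (SE), edgeR adjusted p = 3.88e-05, and the difference between backgrounds was not called (adjusted p = 0.665). GDF7, a ligand of the bone morphogenetic protein family, went from 0.757 and 0.689 to 4.83 and 5.12 CPM in deficient and from 4.60 and 3.49 to 33.8 and 31.6 CPM in proficient libraries, a change of 2.91 ± 0.15 (SE), edgeR adjusted p = 0.000124. Parental proficient cells thus had about the level of resistant deficient ones, yet no resistant library was below a parental one.

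MMP2 and LY6E also had small p, but rested on few counts in proficient cells. MMP2, a gelatinase that degrades matrix, went from 19.6 and 20.3 to 258 and 229 CPM in deficient libraries, while the proficient ones summed to 0 counts in parental and 8 in resistant cells, at least 2.71-fold higher against a floor of 3 counts over the group. LY6E, a surface protein of the LY6 family, went from 0.132 and 0.287 to 40.1 and 26.9 CPM in deficient cells. Its proficient libraries summed to 0 counts before and 59 after resistance, at least 20-fold higher. The additive test called both (edgeR adjusted p = 7.84e-05 and 0.000133).

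The genes that fell furthest included a tight junction protein, a folate receptor and an amino acid transporter. CLDN6, a claudin of tight junctions, had 5.395 and 5.88 CPM in parental deficient and 11.2 and 12.8 CPM in parental proficient libraries. Resistant cells held 2 counts against 369 in deficient cells, a ratio of 176 with an exact 95% interval of 48.4 to 1461, and 0 counts against 647 in proficient cells, at least 212-fold lower. DCAF12L1, on the X chromosome, went from 5.95 and 7.98 CPM to 0 counts in deficient cells, at least 146-fold lower, and from 7.50 and 7.43 to 0 and 0.167 CPM in proficient cells. ACSS3, a mitochondrial acyl-CoA synthetase, went from 10.2 and 11.1 CPM to 0 counts in deficient cells, at least 222-fold lower, and from 8.35 and 7.81 to 0.243 and 0.167 CPM in proficient cells. No resistant library of these 3 genes reached a parental one, and edgeR's adjusted p in the additive model was 0.000179, 0.000528 and 0.000753.

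HEPHL1, a copper-dependent ferroxidase, stood at 45.5 and 48.6 CPM in parental and 1.62 and 1.48 CPM in resistant deficient libraries, and at 6.05 and 4.77 against 0.382 and 0.291 CPM in proficient ones. Its additive log2 fold change was -4.57 ± 0.24 (SE), edgeR adjusted p = 0.000124, and the groups did not overlap. FOLR1, the folate receptor alpha of ovarian epithelium, went from 11.4 and 12.2 to 1.26 and 0.810 CPM in deficient and from 25.3 and 29.9 to 3.47 and 2.37 CPM in proficient libraries (-3.37 ± 0.21 (SE), edgeR adjusted p = 0.000146). INHBE, a subunit of the activin family and an ATF4 target, went from 8.09 and 9.93 to 1.01 and 1.27 CPM and from 43.1 and 45.9 to 0.763 and 0.791 CPM (-4.36 ± 0.59 (SE), edgeR adjusted p = 0.00177). Parental INHBE was higher in proficient cells and the resistant levels lay close together. The metalloprotease ADAMTS12 (-3.76), IGFN1 (-3.89), the amino acid transporter SLC38A4 (-3.38) and the GTPase-activating protein gene ARHGAP4 (-2.98) fell as well, each with all 4 resistant libraries below all 4 parental ones.

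LCN2 and CXCL8 had the smallest p among the genes that fell. LCN2, an iron-siderophore binding lipocalin, stood at 129 and 131 CPM in parental and 17.1 and 14.6 CPM in resistant deficient libraries, and at 80.8 and 79.8 against 12.5 and 11.4 CPM in proficient ones. CXCL8, the neutrophil chemokine interleukin 8, went from 216 and 225 to 55.5 and 57.3 CPM and from 313 and 290.1 to 77.4 and 84.9 CPM. Their additive log2 fold changes were -2.89 ± 0.10 (SE), edgeR adjusted p = 3.73e-05 and -1.93 ± 0.07 (SE), edgeR adjusted p = 3.73e-05, and in neither did the groups overlap. DNMT3B, a DNA methyltransferase that sets methylation de novo, fell from 39.2 and 44.8 to 13.1 and 11.9 CPM and from 111 and 114 to 31.6 and 31.1 CPM (-1.79 ± 0.08 (SE), edgeR adjusted p = 9.23e-05). SNTB1, which encodes a syntrophin, fell as well (-1.52). For DNMT3B the parental deficient level was close to the resistant proficient one, but each resistant library was below each parental one.

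**Figure D2:**
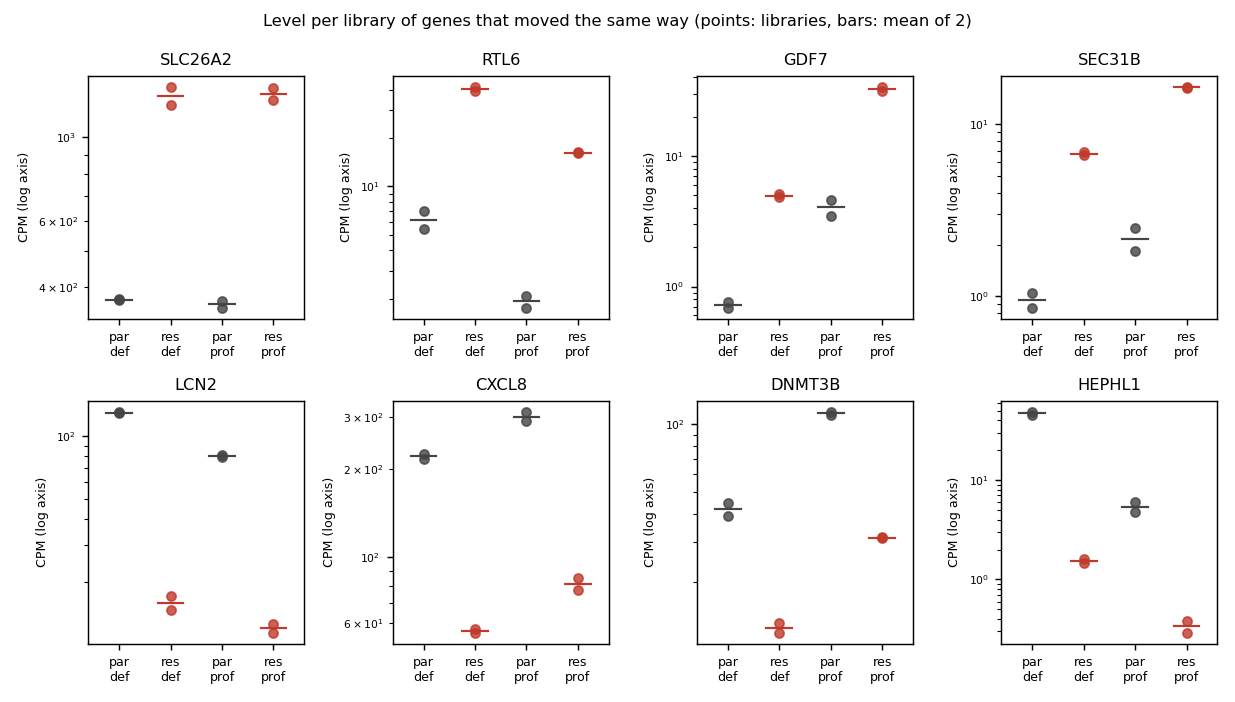
CPM, the count relative to scaled library totals, on a log axis for 8 genes that moved the same way, in parental (par, grey) and resistant (res, red) libraries of BRCA1-deficient (def) and BRCA1-proficient (prof) cells. Each point is a library and each bar the mean of 2. In each panel the resistant points are all on one side of the parental ones, above for SLC26A2, RTL6, GDF7 and SEC31B and below for LCN2, CXCL8, DNMT3B and HEPHL1.

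Of 46 G2/M and mitosis genes tested, 21 fell the same way in both backgrounds (45.7%, against 13% of all genes) and 0 rose. The other 25 were not called the same way, 3 of them with opposite signs, which 9.3% of all genes had. The median additive log2 fold change of the list was -0.48 against 0.04 over all genes. Those that fell included CDK1 and the cyclins CCNA2 and CCNB2 that drive entry into mitosis, the kinetochore and checkpoint genes NUF2, NDC80, BUB1, BUB1B, TTK and CENPA, and the motor and spindle genes KIF2C, KIF23, PRC1 and TPX2. CDK1 stood at 348 and 360.4 CPM in parental and 154 and 171 CPM in resistant deficient libraries, and at 504 and 474 against 231 and 256 CPM in proficient ones. Its log2 fold change was -1.12 ± 0.08 (SE) and -1.01 ± 0.08 (SE), and the additive one -1.07 ± 0.07 (SE), edgeR adjusted p = 0.00019. NUF2, a subunit of the kinetochore's NDC80 complex, fell by 1.01 and KIF2C, a kinesin that takes microtubules apart, by 0.83 on the log2 scale. All 4 resistant libraries were below all 4 parental ones for 19 of the 46, against 9.98% of all genes.

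The median log2 fold change of this list was -0.60 in proficient and -0.32 in deficient cells. PLK1, CDC25C and KIF20A, which promote mitotic entry and cytokinesis, rose in deficient and fell in proficient cells. With the dependence of each library on transcript GC content removed, 16 of the 46 fell the same way and 0 rose, and the median was -0.55 in proficient cells but -0.05 in deficient ones. Over all settings tried the count that fell was 14 to 23.

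Many promoters of mitotic genes carry a cell cycle homology region (CHR), which the DREAM complex and B-MYB bind, together with CCAAT boxes bound by NF-Y. The 250 bases before the start in RefSeq (GRCh38.p14) were searched on both strands for CHR, as TTTGAA or TTCGAA, and for CCAAT. A promoter was found for 39 of the 46 genes, and 20 of them (51.3%) held a CHR, against 14.6% of all 27305 promoters and 9.99% of those of genes tested. The share was 55.6% (10 of 18) in the genes that fell the same way and 47.6% (10 of 21) in the others, and CCAAT was in 61.1% and 81.0%, against 33% of all promoters. The 4 sequences below are the 100 bases before the start of all the fallen members that hold both motifs in that stretch. Capitals mark CHR and CCAAT on either strand, and each runs 5′ to 3′ on the gene's strand.
CCNB2, chr15:59105046-59105145, plus strand: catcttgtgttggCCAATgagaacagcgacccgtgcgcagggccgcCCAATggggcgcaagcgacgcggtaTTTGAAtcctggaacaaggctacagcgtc
ESPL1, chr12:53268199-53268298, plus strand: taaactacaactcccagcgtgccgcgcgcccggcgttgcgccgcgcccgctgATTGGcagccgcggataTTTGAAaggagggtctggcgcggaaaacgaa
KIF23, chr15:69414249-69414348, plus strand: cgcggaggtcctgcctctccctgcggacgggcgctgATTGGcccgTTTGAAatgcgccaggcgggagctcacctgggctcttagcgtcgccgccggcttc
PRC1, chr15:90994536-90994635, minus strand: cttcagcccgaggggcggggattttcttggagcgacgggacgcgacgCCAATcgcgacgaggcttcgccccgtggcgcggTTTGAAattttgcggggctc

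In all 4 a CCAAT box lies upstream of the CHR. CCNB2 encodes cyclin B2, and it fell from 121 and 112 to 82.2 and 89.7 CPM in deficient and from 141 and 142 to 101 and 104 CPM in proficient libraries (-0.45 ± 0.07 (SE), edgeR adjusted p = 0.00237). ESPL1, the separase that cuts cohesin at anaphase, fell by 0.63, and its deficient resistant libraries stayed above the proficient parental ones. KIF23, a motor of the central spindle, fell by 0.52 and PRC1, which bundles the spindle midzone, by 0.65 on the log2 scale.

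Genes of G1/S transition and DNA replication moved in mixed directions. Of 44 G1/S and DNA replication genes, 6 rose (13.6%) and 8 fell (18.2%) the same way, with a median of 0.04. Over all genes these shares were 10.1% and 13%. TK1, the thymidine kinase of the cytosol, rose (0.89). The phosphatase CDC25A (-0.77), the clamp loader subunit RFC4 (-0.62) and MCM10 (-0.70) fell. Without parental deficient replicate 2, 5 in place of 8 fell.

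The lists of genes induced by amino acid shortage and endoplasmic reticulum stress held members that fell in both backgrounds and 0 that rose in both. In the integrated stress response, eIF2α kinases lower general translation and raise the transcription factor ATF4, which induces amino acid enzymes, transporters and tRNA synthetases, and the unfolded protein response adds ATF6 and the IRE1-XBP1 arm. Of 24 genes of the ATF4 response 11 fell and 0 rose (45.8%), of 29 for amino acid synthesis, transport and tRNA charging 15 fell and 0 rose (51.7%), and of 22 for the unfolded protein response 12 fell and 0 rose (54.5%). Their median additive log2 fold changes were -0.79, -0.58 and -0.48, and 13% of all genes fell the same way. With the GC trend removed 12, 11 and 11 members fell and again 0 rose. Within deficient cells 6 ATF4 genes, 6 amino acid genes and 2 genes of the unfolded protein response rose, where 28.9% of all genes rose. The median of the amino acid list was -0.18 in deficient and -0.90 in proficient cells, and with the GC trend removed that in deficient cells was 0.02.

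DDIT3, which encodes the stress transcription factor CHOP, stood at 41.4 and 40.4 CPM in parental and 15.8 and 19.5 CPM in resistant deficient libraries, and at 162 and 157 against 39.1 and 38.5 CPM in proficient ones. The groups did not overlap (-1.63 ± 0.18 (SE), edgeR adjusted p = 0.000753), and the change was larger in proficient cells (-2.04 ± 0.09 (SE) against -1.21 ± 0.10 (SE), adjusted p of the difference 0.000454). CLGN, an endoplasmic reticulum chaperone, went the other way in size, with -2.39 ± 0.11 (SE) in deficient and -1.16 ± 0.10 (SE) in proficient cells. Other members that fell were TRIB3, a pseudokinase that restrains this response (-1.76), CTH, which makes cysteine (-1.75), PPP1R15A, which directs the dephosphorylation of eIF2α (-1.24), and CEBPG (-0.79). The median of the list was -0.20 in deficient and -1.46 in proficient cells. Opposite signs were called for 6 of the 24, among them CHAC1, STC2 and DDIT4, against 9.3% of all genes.

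ALDH1L2, a mitochondrial enzyme of folate metabolism, stood at 118 and 125 CPM in parental and 19 and 19.4 CPM in resistant deficient libraries, and at 195 and 184 against 8.19 and 8.33 CPM in proficient ones. It fell by 3.57 on the log2 scale (edgeR adjusted p = 0.000723). The glutamine and alanine transporter SLC38A2 went from 1608 and 1652 to 811 and 874 CPM and from 3569.6 and 3276 to 1200.5 and 1322 CPM (-1.196 ± 0.11 (SE), edgeR adjusted p = 0.00052). Of the tRNA synthetases, MARS1 (-0.78), AARS1 (-0.76), EPRS1 (-0.61), SARS1 (-0.84), NARS1 (-0.42), TARS1 (-0.40), IARS1 (-0.32), WARS1 (-0.97) and YARS1 (-0.78) fell, while LARS1 and VARS1 rose in deficient and fell in proficient cells. MTHFD2 (-1.14) and PSAT1 (-0.51), of mitochondrial folate and serine synthesis, fell too. All 4 resistant libraries were below all 4 parental ones for 15 of the 29 genes, against 9.98% of all genes.

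ATF4 binds with C/EBP partners at an element of the form TGATGNAA. In the same RefSeq windows it was found in 4 of 21 promoters of the ATF4 list (19.0%) and 3 of 20 of the amino acid list (15.0%), against 3.19% of all promoters. Of the members that fell it was in HERPUD1, AARS1 and IARS1. In the ATF4 list that was 1 of 9 that fell (11.1%) against 3 of 12 that did not, and in the amino acid list 2 of 13 (15.4%) against 1 of 7 (14.3%). The stretch of IARS1 is shown as the only one of these with the element inside the 100 bases before the start, and capitals mark the element on the reverse strand.
IARS1, chr9:92293698-92293797, minus strand: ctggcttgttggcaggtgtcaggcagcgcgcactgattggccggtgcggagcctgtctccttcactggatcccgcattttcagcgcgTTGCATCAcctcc
IARS1, the isoleucine tRNA synthetase, had 618 and 589 CPM in parental and 473 and 511 CPM in resistant deficient libraries, and 619.6 and 570.4 against 456 and 482 CPM in proficient ones. Its decrease was small next to that of ALDH1L2 but the groups did not overlap (-0.32 ± 0.07 (SE), edgeR adjusted p = 0.00975).

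In the unfolded protein response the sensors themselves fell. ATF6 went from 179.7 and 180.1 to 105 and 118 CPM and from 317 and 288 to 167 and 178 CPM (-0.75 ± 0.07 (SE), edgeR adjusted p = 0.000582), with resistant proficient libraries just below the parental deficient ones. ERN1, which encodes IRE1α, had -1.44 and EIF2AK3, which encodes PERK, -0.45. XBP1, the transcription factor that IRE1α splices, fell by 0.76 on the log2 scale, with its levels set by background: 111 and 109 against 60.3 and 63 CPM in deficient and 334 and 311 against 199 and 205 CPM in proficient libraries. The co-chaperone and kinase inhibitor DNAJC3 fell from 53.9 and 57.5 to 19.7 and 23.4 CPM and from 114 and 95.9 to 47.2 and 49.5 CPM (-1.24 ± 0.10 (SE), edgeR adjusted p = 0.000314). HSPA5, the chaperone BiP, fell by 0.50.

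Of 46 genes of cytosolic ribosomal proteins, 23 rose the same way (50%, against 10.1% of all genes) and 0 fell, with a median of 0.46. All 4 resistant libraries were above all 4 parental ones for 4 of the 46, near the share of all genes (7.76%). RPL19 stood at 628 and 587 CPM in parental and 1122 and 992 CPM in resistant deficient libraries, and at 351 and 390.3 against 672 and 561 CPM in proficient ones. The levels were higher in deficient cells of both kinds, and the libraries separated within each background (0.77 ± 0.09 (SE), edgeR adjusted p = 0.00091). RPL32 rose by 0.60, RPL29 by 0.69 and RPS28, the furthest, by 1.67 on the log2 scale, though its resistant deficient libraries differed between them (499.7 and 258 CPM). The count rests on single libraries in part: it was 14 without parental proficient replicate 1, 15 without parental proficient replicate 2 and 14 without resistant proficient replicate 1, and 27 with 1 that fell when the GC trend was removed. Ribosomal proteins have many processed pseudogenes, so their counts depend on how reads with several matches were treated, which is not given in the sources used here.

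Of 20 WNT targets and feedback genes, 7 rose (35%, against 10.1% of all genes) and 1, CD44, fell the same way. The median was 0.88. Opposite signs were called for 3 of the 20, against 9.3% of all genes. All 4 resistant libraries were above all 4 parental ones for 3 of the 20, against 7.76% of all genes. LGR5, a receptor of R-spondins that marks epithelial stem cells, went from 0.658 and 0.430 to 5.44 and 5.35 CPM in deficient and from 0.161 and 0.104 to 0.937 and 1.25 CPM in proficient libraries. All were low, yet each resistant library exceeded each parental one (3.20 ± 0.27 (SE), edgeR adjusted p = 0.000346). TCF7, a nuclear partner of β-catenin, rose from 10.03 and 9.29 to 41.8 and 35.2 CPM and from 6.69 and 6.74 to 16.8 and 15 CPM (1.62 ± 0.18 (SE), edgeR adjusted p = 0.000816). BMP4, a ligand and WNT target, rose by 1.44, AXIN2, the feedback scaffold of the β-catenin destruction complex, by 1.64, EPHB3 by 2.04, SOX9 by 0.95 and CCND1, cyclin D1, by 0.62 on the log2 scale. With the GC trend removed 8 rose and 1 fell.

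Histone genes were the list with the largest share of risers. Of 14 tested 8 rose (57.1%, against 10.1% of all genes) and 1 fell, with a median of 1.47. H1-2 stood at 2.30 and 2.04 CPM in parental and 14.6 and 13.6 CPM in resistant deficient libraries, and at 0.484 and 0.933 against 13.1 and 9.62 CPM in proficient ones (3.29 ± 0.33 (SE), edgeR adjusted p = 0.000628). H2BC12 went from 30.8 and 28.5 to 59.99 and 54.9 CPM and from 15.5 and 14.9 to 43.7 and 43.4 CPM (1.23 ± 0.13 (SE), edgeR adjusted p = 0.000709). In both genes the groups did not overlap. Replication-dependent histone messages lack a poly(A) tail and have near-identical copies, so their counts depend on the library method and on how shared reads were counted, and neither is given in the sources used here.

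Of 21 NF-κB and inflammatory cytokine genes, 8 fell the same way (38.1%, against 13% of all genes) and 0 rose, with a median of -0.92. In proficient cells 6 of the 21 rose, near the share of all genes (25.9%), and 5 had opposite signs, against 9.3% of all genes. CXCL8, shown above, was joined by the cytokines IL6 (-1.66), IL1A (-3.00), TNF (-1.45), LIF (-1.10) and the chemokine CCL20 (-2.28), by the inhibitor and target gene NFKBIA and by NFKB1 itself (-0.94). NFKBIA stood at 69.3 and 66.5 CPM in parental and 37.6 and 37.9 CPM in resistant deficient libraries, and at 49.6 and 55.1 against 31.8 and 29.6 CPM in proficient ones, without overlap (-0.81 ± 0.08 (SE), edgeR adjusted p = 0.000509). IL6 was low throughout, at 3.29 and 4.25 against 1.44 and 0.926 CPM and 12.2 and 12.9 against 4.30 and 3.66 CPM (-1.66 ± 0.19 (SE), edgeR adjusted p = 0.000955). CXCL1, CXCL5, CCL2, TNFAIP3 and ICAM1 fell in deficient and rose in proficient cells. With the GC trend removed 11 fell and 1 rose.

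Of 23 NRF2 and antioxidant genes 6 fell (26.1%, against 13% of all genes), with a median of -0.43. KEAP1, the adaptor that has NRF2 degraded, was the 1 that rose (0.64). FTL, the ferritin light chain, stood at 801 and 784 CPM in parental and 341 and 333 CPM in resistant deficient libraries, and at 476 and 545 against 271 and 211 CPM in proficient ones (-1.16 ± 0.10 (SE), edgeR adjusted p = 0.000334). ME1, malic enzyme, fell by 0.98, and both subunits of the enzyme for glutathione synthesis fell, GCLM by 0.91 and GCLC by 0.39 on the log2 scale. Of 25 AP-1 and immediate early genes 6 fell (24%, against 13% of all genes) and 0 rose. Among those that fell were the MAP kinase phosphatases DUSP4 (-2.03) and DUSP5 (-0.96) and the signalling inhibitor SPRY2 (-0.73). In deficient cells 12 of the 25 rose, against 28.9% of all genes, and 7 had opposite signs, against 9.3%. The count that fell was 2 without parental proficient replicate 1, and 3 each without parental deficient replicate 2, without resistant proficient replicate 1 and with DESeq2, and 9 with the GC trend removed.

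**Figure D3:**
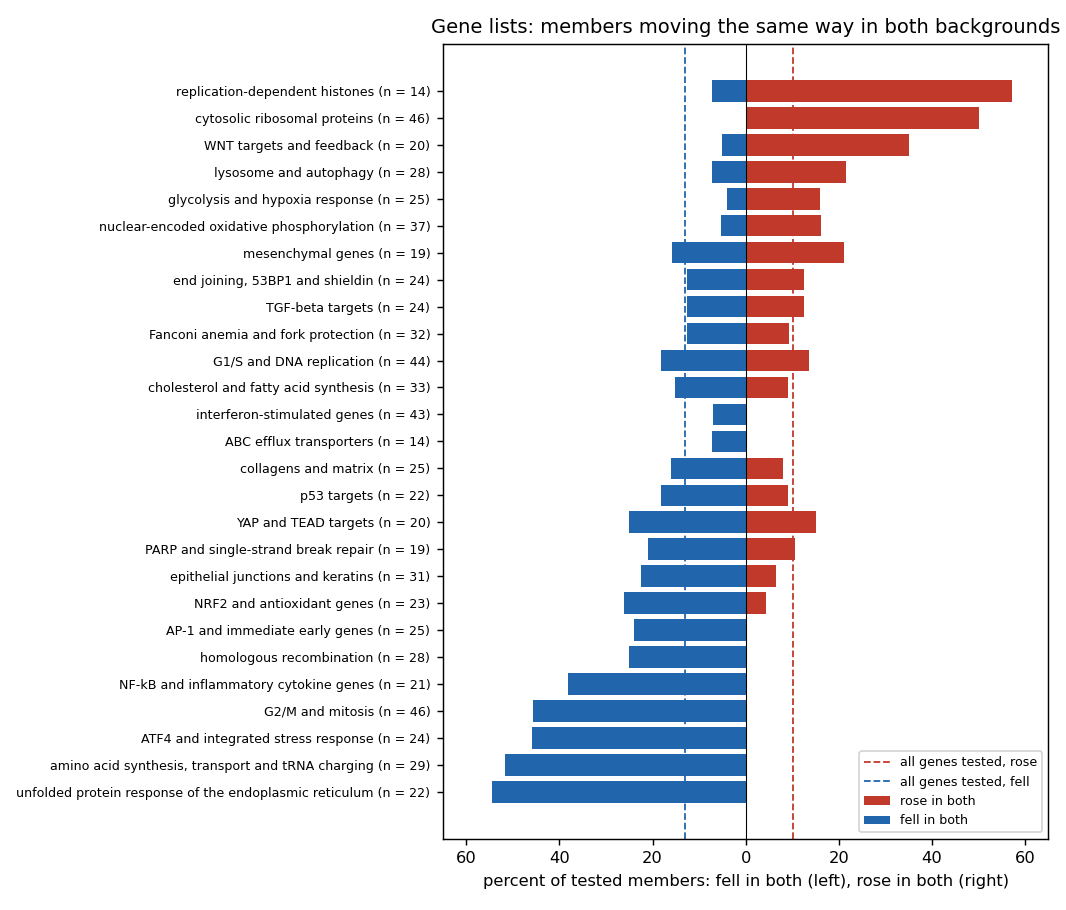
For each gene list, the percent of its tested members (n in brackets) that fell (blue, left) or rose (red, right) the same way in both backgrounds. The dashed lines give the shares over all 16221 genes tested, 13% fell and 10.1% rose. The mitotic, ATF4, amino acid and unfolded protein response lists extend furthest left with no riser, and the histone and ribosomal protein lists furthest right.

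The drug targets themselves fell. PARP1 stood at 641 and 635 CPM in parental and 425 and 444 CPM in resistant deficient libraries, and at 281 and 279 against 145 and 136 CPM in proficient ones. The libraries separated within each background, but parental proficient cells had less PARP1 than resistant deficient ones. Its log2 fold change was -0.55 ± 0.06 (SE) in deficient and -0.99 ± 0.06 (SE) in proficient cells, a difference that was called (adjusted p = 0.00141), and -0.77 ± 0.10 (SE), edgeR adjusted p = 0.00146 in the additive model. PARP2 fell from 105 and 106 to 41.9 and 46.2 CPM and from 114 and 109.8 to 73.3 and 77.9 CPM, all 4 resistant libraries below all 4 parental ones (-0.91 ± 0.14 (SE), edgeR adjusted p = 0.00322). TDP1, which removes topoisomerase I adducts, fell by 0.73 and POLB, the polymerase of base excision repair, by 0.39, while HPF1, which directs PARP1 to serine, rose by 0.35 and the glycosylase MPG by 1.18 on the log2 scale. In all, 2 of 19 genes of this list rose and 4 fell the same way (10.5% and 21.1%, against 10.1% and 13% of all genes). Opposite signs were called for 4 of the 19, against 9.3% of all genes. The risers were 0 without parental proficient replicate 1 or resistant proficient replicate 1, and 1 without either parental deficient replicate, without parental proficient replicate 2 or with the replicate block.

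BRCA1 itself did not move the same way. It stood at 36.1 and 35.1 CPM in parental and 34.7 and 34.8 CPM in resistant deficient libraries, and at 212 and 191 against 2176 and 2365 CPM in proficient ones. In deficient cells it differed by less than the test could call, with a log2 fold change of -0.04 ± 0.07 (SE) (adjusted p = 0.714), and resistant proficient libraries were far above the parental ones, with 3.49 ± 0.07 (SE) (adjusted p = 1.06e-10). The additive test did not call it (1.75, edgeR adjusted p = 0.103). With the GC trend removed, the change in deficient cells turned to 0.28 (edgeR adjusted p = 0.000735). Gene counts do not tell transcripts of the endogenous gene from those of the added one.

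Of 28 homologous recombination genes, BRCA1 included, 7 fell the same way (25%, against 13% of all genes) and 0 rose, with a median of -0.23. EXO1 and DNA2, nucleases of long-range end resection, and the helicase BLM that works with DNA2 were among them. DNA2 fell from 54.3 and 51.8 to 32.9 and 32.6 CPM and from 70.4 and 63.4 to 37.2 and 41.1 CPM (-0.73 ± 0.08 (SE), edgeR adjusted p = 0.000734), and EXO1 and BLM fell by 0.92 and 0.48 on the log2 scale. BARD1, the partner of BRCA1, fell by 0.37, MRE11 by 0.37, RAD54B by 0.59 and the meiotic recombinase DMC1 by 1.48. The count was 4 without either parental deficient replicate, 4 without resistant deficient replicate 1, 4 with DESeq2, and 5, with 2 that rose, when the GC trend was removed.

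The end joining and shieldin list was even, with 3 of 24 that rose and 3 that fell (12.5% each). That is near the shares of all genes, 10.1% and 13%. TP53BP1, which encodes 53BP1, stood at 57.4 and 59.5 CPM in parental and 65 and 71.5 CPM in resistant deficient libraries, and at 63.1 and 63.4 against 113 and 122 CPM in proficient ones. It rose, with no overlap of the groups (0.56 ± 0.14 (SE), edgeR adjusted p = 0.0192). NHEJ1, which encodes the ligase accessory factor XLF, rose by 0.71 and CTC1, of the CST complex, by 0.48, whereas the ligase LIG4 fell by 0.72, the nuclease DCLRE1C by 0.61 and the ubiquitin ligase RNF168 by 0.45 on the log2 scale. RNF168 was called the same way in 10 of the 18 other settings. The risers were 0 without parental deficient replicate 2, without parental proficient replicate 1 or without resistant proficient replicate 1, and 1 without parental deficient replicate 1 or either resistant deficient replicate. Those that fell were 1 without parental deficient replicate 2 and 1 with the GC trend removed.

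In the Fanconi anemia and fork protection list 3 of 32 rose and 4 fell (9.38% and 12.5%), near the shares of all genes. CHEK1, the checkpoint kinase of stalled forks, went from 155 and 161 to 113 and 124 CPM and from 230.1 and 216 to 109.9 and 109 CPM (-0.72 ± 0.13 (SE), edgeR adjusted p = 0.00524), and FANCI fell by 0.47. ETAA1, an activator of the kinase ATR, fell by 0.58. The risers were 1 when any proficient library was left out. Of 14 ABC efflux transporters 1, ABCC4, which exports organic anions and nucleotides, fell (-1.07 ± 0.17 (SE), edgeR adjusted p = 0.00299) and 0 rose. The share that fell was 7.14%, against 13% of all genes. ABCC1, ABCC6 and ABCA1 had opposite signs in the backgrounds, and ABCB1, the P-glycoprotein that exports several PARP inhibitors, was not called (1.501 ± 0.87 (SE), edgeR adjusted p = 0.213). Its levels were 0.329 and 0.0574 against 0.432 and 0.116 CPM in deficient and 0 and 0.138 against 0.659 and 0.375 CPM in proficient libraries. They overlapped in deficient and not in proficient libraries. At this depth a change is easily missed, so the lack of a call does not show that the level stayed the same.

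Each of the lists that follow held members that rose and members that fell, and over all genes 10.1% rose and 13% fell. Of 37 genes of oxidative phosphorylation 6 rose (16.2%) and 2 fell (5.41%), led by the complex I subunit NDUFA2 (1.38). But 12 rose with the GC trend removed and 3 without parental deficient replicate 2. Of 28 lysosome and autophagy genes 6 rose (21.4%) and 2 fell (7.14%). Those that fell were 1 when resistant deficient replicate 2 or parental deficient replicate 1 was left out. The lysosomal calcium channel MCOLN1 (1.27) and the protease CTSD (1.46) rose, and the membrane proteins LAMP1 (-0.43) and LAMP2 (-0.68) fell. Of 25 glycolysis and hypoxia genes 4 rose (16%) and 1 fell (4%), with 1 to 2 risers when single libraries were left out (1 without parental proficient replicate 1 or resistant proficient replicate 1, and 2 without parental proficient replicate 2 or either parental deficient replicate).

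Of 33 genes of cholesterol and fatty acid synthesis 3 rose (9.09%) and 5 fell (15.2%), among them the desaturases FADS1 (-0.58) and FADS2 (-0.43). HMGCS1 and INSIG1 fell in deficient and rose in proficient cells. Of 22 p53 targets 2 rose (9.09%) and 4 fell (18.2%), with TNFRSF10B (-0.62) and FAS (-0.34), both death receptors, among the latter. The fallers were 2 without parental proficient replicate 1 or resistant proficient replicate 1. Of 24 TGF-β targets 3 rose and 3 fell (12.5% each), LTBP2 (1.28) the furthest up and BAMBI, a decoy receptor (-2.15), the furthest down. Of 20 YAP and TEAD targets 3 rose (15%) and 5 fell (25%). They divided between ANKRD1 (0.97) and CCN2 (0.54) on one side and AJUBA (-0.71), CCN1 (-0.63) and YAP1 (-0.49) on the other. Single libraries moved these counts. The cholesterol risers were 1 without parental proficient replicate 1 or resistant proficient replicate 1, and the fallers 3 without resistant proficient replicate 2. The TGF-β risers were 1 without parental deficient replicate 1 and 5 without resistant deficient replicate 2, and the YAP risers were 1 without parental deficient replicate 1 or parental proficient replicate 2 and 5 without resistant deficient replicate 2.

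Cell adhesion genes changed member by member. Of 31 epithelial junction and keratin genes 7 fell and 2 rose (22.6% and 6.45%). Besides CLDN6, the transcription factor GRHL1 (-1.11), and PKP2 (-0.89), DSP (-0.70) and DSG2 (-0.44), which build desmosomes, fell, and JUP (0.77) and ESRP2 (0.57) rose. GRHL1 was at 28.1 and 27.9 against 14 and 13.4 CPM in deficient and 112 and 112 against 49.8 and 48 CPM in proficient libraries, so that it separated within but not across backgrounds. Of 19 mesenchymal genes 4 rose (21.1%) and 3 fell (15.8%). N-cadherin, CDH2, went from 131 and 135 to 265 and 286 CPM and from 160.1 and 151 to 223 and 236 CPM (0.81 ± 0.11 (SE), edgeR adjusted p = 0.0018), and vimentin, VIM, from 79.4 and 80.6 to 146 and 154 CPM and from 15.6 and 15.1 to 263 and 262 CPM. In both, all resistant libraries were above all parental ones, for VIM with unequal size (0.91 ± 0.06 (SE) against 4.09 ± 0.07 (SE)). The fibronectin receptor subunit ITGA5 fell (-1.24). Of 25 collagen and matrix genes 2 rose (8%) and 4 fell (16%), with COL5A2 (1.23) among the former. Without resistant deficient replicate 2 these were 4 and 2. Removal of the GC trend gave 7 that fell.

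Of the marker lists, MSLN, mesothelin, rose (0.85 ± 0.23 (SE), edgeR adjusted p = 0.0274), but not with the GC trend removed (0.28, adjusted p = 0.357) or with 5 of the 8 libraries left out in turn. PTPRC, the leukocyte antigen CD45, was present at 9.21 and 8.78 CPM in parental and 3.49 and 4.66 CPM in resistant deficient libraries, and at 13.3 and 12.3 against 5.66 and 6.83 CPM in proficient ones. It fell without overlap of the groups (-1.09 ± 0.15 (SE), edgeR adjusted p = 0.00188), while the defining leukocyte markers MS4A1, CD3D and CD3E were at 0 in at least 7 of the 8 libraries each and never above 2 counts. No fibroblast or endothelial marker moved the same way.

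Of 43 interferon-stimulated genes, 22 were called in opposite directions, against 9.3% of all genes. Another 3 fell the same way (6.98%, against 13% of all genes) and 0 rose. The median was -1.28 in deficient and 0.79 in proficient cells. IFI44L went from 45.1 and 45.6 to 1.55 and 1.91 CPM in deficient and from 1.09 and 1.04 to 13 and 15.2 CPM in proficient libraries. Its additive log2 fold change of -0.62 (edgeR adjusted p = 0.87) thus averages a decrease and an increase. EPSTI1 (-1.91), DTX3L (-0.59) and PARP14 (-0.86) fell in both. EPSTI1 stood at 39.9 and 35.1 against 13 and 11.9 CPM and at 47.9 and 45 against 9.89 and 9.83 CPM, without overlap. PARP14 missed the additive threshold in 7 of the other settings, with adjusted p from 0.0525 to 0.112, and its call in both backgrounds was lost in 13 of the 18.

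The other genes named for opposite signs were not of this list. C3, the central complement component, went from 125 and 125 to 8.28 and 6.39 CPM in deficient and from 8.31 and 8.75 to 140.1 and 117 CPM in proficient libraries. MYH14, a nonmuscle myosin heavy chain, went from 1.41 and 1.205 to 62.3 and 43.1 CPM and from 10.1 and 9.82 to 0.278 and 0.291 CPM, and the zinc finger gene ZNF676 from 7.07 and 7.49 to 0.0360 and 0.116 CPM and from 2.06 and 1.73 to 30.9 and 34.9 CPM. None was called in the additive model (edgeR adjusted p = 0.983, 0.894 and 0.986). Of the 1509 genes with opposite signs, 694 rose in deficient and fell in proficient cells, 815 did the reverse, and 1 was called by the additive model.

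Moving the same way did not mean moving equally. A test of the difference between the 2 resistance effects called 7578 genes, 46.7% of those tested. Of the 1639 same-way risers it called 471, with 191 larger in deficient and 280 larger in proficient cells, and of the 2112 that fell it called 865, with 274 and 591. For the other 1168 and 1247 the difference was not called, which does not show that the effects were equal. The additive model alone called a further 976 risers and 668 fallers: of the risers 573 passed within deficient cells only, 387 within proficient cells only and 15 within neither, and of the fallers 305, 350 and 13.

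The shares of genes that moved the same way differed between chromosomes. On chromosome 13, 34.3% of 283 genes fell and 2.12% rose, against 13% and 10.1% of all genes, and on chromosome 17, 22.8% of 903 rose and 3.65% fell. Chromosomes 12, 1 and 14 had the next largest shares that fell (23.1%, 21.8% and 21.2%), and chromosomes 5 and 22 the next largest that rose (19.1% and 18.9%). With the GC trend removed the shares were 25.4% fallen on chromosome 13 and 27.0% risen on chromosome 17. Chromosome 12 then had a like share fallen (25.1%) and chromosome 5 a like share risen (26.4%). Over all 16221 genes 2284 then rose and 1802 fell, in place of 1639 and 2112, so the shares before and after removal have different backgrounds. The median log2 fold change over chromosome 13 was -0.18 in deficient and -1.02 in proficient cells, and with the GC trend removed it was 0.08 and -0.99. Copy number was not measured in these files, and its part in these values was not tested.

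**Figure D4:**
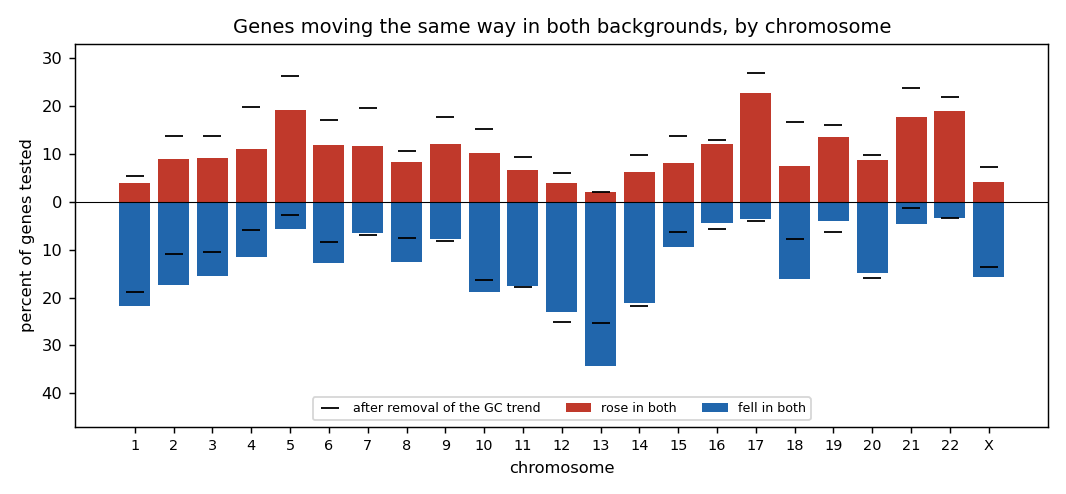
Percent of the genes tested on each chromosome that rose (red, up) or fell (blue, down) the same way in both backgrounds, with dashes for the shares after removal of the GC trend. Chromosome 13 has the largest share that fell (34.3%) and chromosome 17 the largest that rose (22.8%).

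Neighbouring genes moved together in places. Among 15588 genes placed in order along the chromosomes, 19 runs of 5 or more neighbouring tested genes fell the same way and 7 rose. The longest, 10 genes on chromosome 13 from ABCC4 through DNAJC3 to STK24, fell with log2 fold changes of -0.62 to -1.78 in deficient and -0.48 to -1.57 in proficient cells, and all 10 did so with the GC trend removed. A run of 9 on chromosome 12, from CERS5 to TFCP2, fell likewise. A run of 5 on the same chromosome held ARID2, SCAF11 and the amino acid transporters SLC38A1 (-0.76), SLC38A2 (-1.196) and SLC38A4 (-3.38), so SLC38A2 and SLC38A4 given above lie side by side in the genome. Among the runs that rose were HOXB7 (1.99), HOXB8 (4.58), HOXB9 (4.75), HOXB13 (3.4) and CALCOCO2 on chromosome 17, the HOXB genes sharing antisense transcripts with which their reads may be mixed. A run of 5 protocadherin gamma genes on chromosome 5 shares constant exons, and 2 runs of small nucleolar RNAs share host genes, so these hold fewer independent genes than their number.

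Transcript GC content moved with the resistance effect. The median GC content was 53.5% in the same-way risers, 43.1% in those that fell and 48.1% over the 96.6% of genes tested that had a value. From the lowest to the highest quintile of genes by GC content, the share that rose went from 4.12% to 14.7% and the share that fell from 23.2% to 2.39%. The median log2 fold change went from -0.25 to 0.79 in deficient cells, and from -0.13 to 0.08 in proficient ones. With the GC trend of each library removed 2284 genes rose and 1802 fell the same way, in place of 1639 and 2112, so the balance of the directions depends on this choice. Of the genes reported, 85.5% of the risers and 66.0% of those that fell were called again, and 0 were called the same way in the opposite direction.

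**Figure D5:**
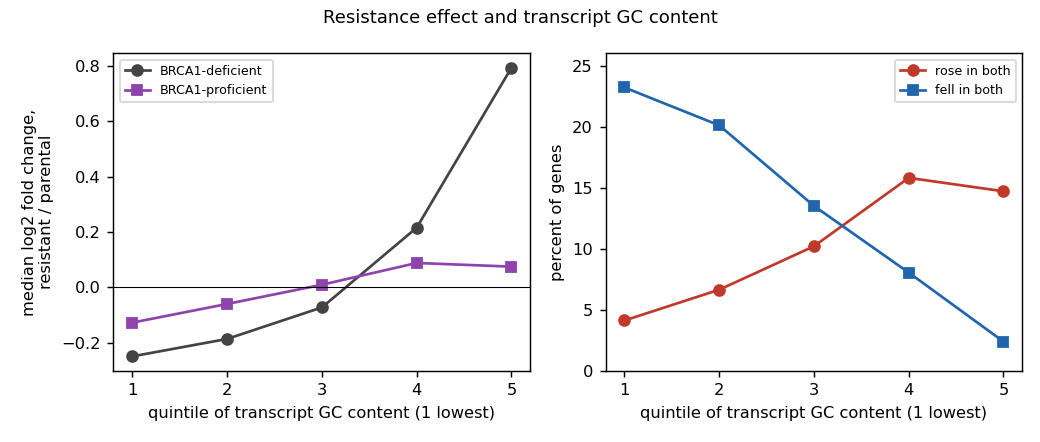
Genes grouped into quintiles by the GC content of their longest transcript (1 lowest). On the left the median log2 fold change of resistant over parental cells is shown for each background, and on the right the percent of genes that rose or fell the same way. The share that fell goes from 23.2% to 2.39%, and the trend of the medians is steeper in deficient than in proficient cells.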

How the data were processed

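RNA of 8 libraries was measured, and 1 deposited table of counts per gene symbol (32803 symbols, whole numbers, not normalized, as the values show) was used; 0 sample columns were left unused. The submitters' processing notes name Trimmomatic 0.39, featureCounts, Subread 2.0.1, DESeq2 1.24.0 and the build GRCh37 without stating their roles. Which gene annotation was used, whether counting used strand, and what was done with reads that match several places is not given in the sources used here. For this reason overlapping, antisense and near-identical genes may share reads in these counts. Groups come from sample titles, and columns were joined to samples by the library names in the sample descriptions.

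For the tests, edgeR 4.0.16 (R 4.3.3) fitted quasi-likelihood models to the counts, with TMM factors, filterByExpr (16221 genes kept) and Benjamini-Hochberg adjustment over all genes tested. The additive model held BRCA1 state and resistance (5 residual degrees of freedom), and a 4-group fit (4 residual degrees of freedom) gave each background and the difference between them. A gene moved the same way when all of these, apart from the difference, had an adjusted p under 0.05 and one sign. The SE is the log2 fold change divided by the square root of F. CPM are relative to TMM-scaled totals. Against a group with 0 counts a floor of 3 counts over the group was used, and floors and exact 95% intervals cover counting error only. With 2 libraries a group, and no label saying that they are separate cultures, the spread behind each p-value is that of these samples alone and may be technical. Replicates differed beyond sampling noise in each group (chi-square per degree of freedom 4.21 to 22.5).

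Genes were named by rule: up to 10 per direction with the largest smaller change of the 2 backgrounds (protein coding, mean of at least 5 CPM in the higher group of each background), 5 per direction with the smallest additive p, up to 3 members of each list with the smallest p, up to 3 per pattern of opposite signs, BRCA1 and PARP1. Further list members and neighbours were named after their values were seen, and some genes are not reported here. The members and gene lists were chosen with earlier results of these data known, and lists are described by counts and medians without a set test. Promoters and gene order are from RefSeq (GRCh38.p14), and GC content from GENCODE v29, matched by symbol or gene ID.

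Alternatives were RLE factors, library totals, no filter, a filter of 1 CPM in 2 libraries, DESeq2 1.42.0, the mean of both contrasts, each background fitted alone, the replicate number as a block, a GC correction (natural spline with 5 degrees of freedom) with and without that block, and each library left out. The steps were tested on simulated data over 15557 genes, some of them with equal changes in both backgrounds. Called the same way were 56.7% of 67 genes changed 1.5-fold, 85.1% of 67 changed 2-fold and 100% of 66 changed 4-fold. So were 0 of 15257 unchanged genes and 0 of 100 changed in opposite directions. The rule asks for one sign, so genes changed in opposite directions could hardly be called.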

Additional observations from a re-analysis of the deposited data

Results flagged for a closer look

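For 21 of the 106 genes named by rule and reported here, the resistance effect differed between the backgrounds by at least 2-fold and past an adjusted p of 0.05 in edgeR's test of the difference. Each difference below is the log2 fold change in proficient minus that in deficient cells, and the values in parentheses are the effects in deficient and proficient cells. Among genes that rose in both, the effect differed for HOXB9 by 3.96 (3.57 and 7.53), ZNF727 by 3.03 (2.79 and 5.82), WSCD1 by 1.60 (2.995 and 4.60), H1-2 by 1.27 (2.70 and 3.97) and CFAP44 by 1.07 (2.81 and 3.87), all larger in proficient cells. It differed for PNMA2 by -1.33 (4.50 and 3.17), larger in deficient cells.

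Among genes that fell in both, the decrease was larger in proficient cells for INHBE by -2.87 (-2.97 and -5.83), ALDH1L2 by -1.86 (-2.66 and -4.52), DUSP4 by -1.84 (-1.15 and -2.99) and BAMBI by -1.10 (-1.61 and -2.71). It was larger in deficient cells for ACSS3 by 6.03 (-11.29 and -5.25), ADAMTS12 by 1.33 (-4.45 and -3.11), PARP14 by 1.26 (-1.49 and -0.23) and CLGN by 1.23 (-2.39 and -1.16). The fitted value of ACSS3 depends on the prior count, since its resistant deficient libraries held 0 counts.

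The effects differed with opposite signs for MYH14 by -10.44 (5.33 and -5.11), ID4 by -3.83 (1.88 and -1.96) and CAPN5 by -3.24 (1.52 and -1.72), which rose in deficient and fell in proficient cells. The reverse held for ZNF676 by 10.56 (-6.43 and 4.12), IFI44L by 8.43 (-4.70 and 3.73) and C3 by 8.02 (-4.10 and 3.91). BRCA1 differed by 3.53 (-0.04 and 3.49) and changed past the threshold in proficient cells only. The difference was called but smaller than 2-fold for 22 of the other named genes and not called for 63. Groups of 2 libraries are too small for a test of single outlying samples.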

How the results depend on the processing

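The counts of genes moving the same way kept their size within 1.5 times under every alternative run. They were 1527 to 2284 risers and 1649 to 2137 fallers over the settings with all libraries, the GC correction giving the highest count of risers and, together with the replicate block, the lowest of fallers. With single libraries left out they were 1123 to 1667 and 1590 to 1950. No same-way riser was called a same-way faller, or the reverse, in any setting. Under all 18 settings 737 of the 1639 risers and 953 of the 2112 fallers were called the same way. Additive counts were 4933 and 4987 with the mean of both contrasts, which takes opposite effects out of the residual, and the additive fallers were 1775 with the GC trend removed together with the replicate block.

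Of the 104 genes named by rule that moved the same way, 90 were called so in all 18 settings. The call was lost in 13 settings for PARP14, 9 for MSLN, 8 for RNF168, 5 for ENO2, 4 for FAS, 3 for DCLRE1C and 1 or 2 for 8 others. In single tests, 1989 values of the genes named by rule stayed on their side of the threshold, 29 lost their call and 2 reversed. The reversed ones were those of BRCA1 in deficient cells, 0.28 with the GC trend removed and 0.28 with the replicate block added, in place of -0.04. DCLRE1C, ETAA1, FAS, CTSA and MSLN lost their call with the GC trend removed, and BLM, CHEK1, ENO2 and ETV5 when the block was added to that. ENO2 also lost it without parental proficient replicate 1 or resistant proficient replicate 1, MSLN without 5 of the 8 libraries in turn, and PARP14 in 7 settings, 5 of them with a library left out. RNF168 lost its call without resistant deficient replicate 2. Why a setting moved a value was not tested.

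Deviations from group means of libraries of one number had correlations of -0.132 to 0.212 between groups, and 3 of 6 were negative. The highest was that between the 2 resistant groups. These values show no pairing across all groups, and cannot settle whether the numbers pair some of them. With the replicate block 1659 genes rose and 2032 fell the same way. In the simulated data 56.7% of genes changed 1.5-fold were called the same way. There 15257 of 15557 genes were unchanged, whereas in the data 28.9% rose and 27% fell in deficient cells. The Benjamini-Hochberg threshold depends on how many genes change, so the simulated shares do not carry over to these data. With 2 libraries a group, a gene not called may still have changed.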
